A study of Mus musculus with 30 samples.

Results

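Hemoglobin and erythroid genes were examined in RNA of CD11b+ microglia from mouse brain, as a list of 9 genes whose rows were taken from the deposited table by gene symbol. Of the 9 genes, 3 had a row among the 14225 transcripts of the table and were analysed. They were Hbb-y (NM_008221), Hba-x (NM_010405) and Slc4a1 (NM_011403), and all 3 were placed by the authors in the immature microglia module. The other 6 genes (Hba-a1, Hba-a2, Hbb-bs, Hbb-bt, Hbb-bh1 and Alas2) had no row and were not analysed here, so no level of an adult globin is given.

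The study asked how maternal immune activation, and later replacement of microglia, change the microglial transcriptome of the offspring. C57BL/6J dams received saline (Saline) or poly(I:C), a double-stranded RNA that mimics a viral infection (MIA), and cells were taken from whole brains with CD11b magnetic beads in 30 libraries, 3 for each of 10 groups. Saline and MIA offspring were sampled at E17, P7 and P20. At P60, Saline and MIA offspring had received either control chow (Saline_CTRL, MIA_CTRL) or chow with PLX5622, an inhibitor of CSF1R that removes microglia, followed by control chow so that microglia repopulated the brain (Saline_MG-REP, MIA_MG-REP). All mice were of the same strain, carried no transgene, and were of both sexes. A library held the brains of 1 litter at E17, 3 pooled brains at P7 and 1 brain at P20 and P60, so that age also changed how many animals a library averaged.

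Hemoglobin is built from alpha-type and beta-type globin chains, each with heme. Hba-x encodes the embryonic alpha-type (zeta) chain and Hbb-y an embryonic beta-type (epsilon-y) chain, and both are made by primitive red blood cells, which arise in the yolk sac and circulate in the embryo. Red blood cells that arise later, in the fetal liver and bone marrow, use the adult chains in their place. Slc4a1 encodes band 3, the chloride and bicarbonate exchanger of the red blood cell membrane. The yolk sac is also the source of the precursors of microglia.

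In the mm10 assembly (RefSeq on GRCm38.p6), Hbb-y lies on chromosome 7 from 103851754 to 103853207 on the minus strand with 3 exons, next to Hbb-bh1 in the beta-globin cluster. Hba-x lies on chromosome 11 from 32276600 to 32278116 on the plus strand with 3 exons, at the embryonic end of the alpha-globin cluster. Slc4a1 lies on chromosome 11 from 102348820 to 102365281 on the minus strand with 20 exons. No other gene of GENCODE M21 overlapped them.

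Because globin genes are close copies of each other and reads were 40 bases long, the transcripts of both globins were compared with those of their relatives in windows of 40 bases. None of the 594 windows of Hbb-y and none of the 762 windows of Hba-x occurred exactly in a transcript of another gene. Within 3 mismatches, 22 windows of Hbb-y matched Hbb-bh1, 14 matched Hbb-bs and 14 matched Hbb-bt. For Hba-x, 2 windows did so with Hba-a1 and 2 with Hba-a2. The closest pairs are shown because they mark where a read of a relative could be counted for a member, with the bases that differ in capitals.
Hbb-y against Hbb-bh1: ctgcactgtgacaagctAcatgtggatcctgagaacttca
Hbb-bh1: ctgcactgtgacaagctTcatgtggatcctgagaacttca
Hbb-y against Hbb-bs: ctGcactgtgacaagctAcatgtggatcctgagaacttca
Hbb-bs: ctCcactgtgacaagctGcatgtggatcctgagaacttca
Hba-x against Hba-a1: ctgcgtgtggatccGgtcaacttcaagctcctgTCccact
Hba-a1: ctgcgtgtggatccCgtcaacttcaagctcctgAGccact
The window of Hbb-y, at transcript bases 338 to 377, differed from Hbb-bh1 by 1 base and from Hbb-bs by 2 bases. The window of Hba-x, at bases 538 to 577, differed from Hba-a1 by 3 bases. Windows and positions are those of GENCODE M21 transcripts, of 633 bases for Hbb-y and 801 for Hba-x. The RefSeq spans used for the reads were shorter, at 619 and 601 bases. Whether any read of another globin was counted for Hbb-y or Hba-x was not tested.

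The bases before the RefSeq start of both globins are shown because the 2 genes lie on different chromosomes and were highest in the same libraries. They were searched on both strands over 250 bases for the CACCC box, the CCAAT box, the GATA motif (spelled GATAA) and the TATA box (spelled TATAAA), which occur in many globin promoters, and matches are in capitals.
Hbb-y, chr7:103853278-103853377, minus strand: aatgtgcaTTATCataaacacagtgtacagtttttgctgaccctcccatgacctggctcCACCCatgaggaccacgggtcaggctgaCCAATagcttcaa
Hba-x, chr11:32276480-32276509, plus strand: tgttgctggctctGATAAcaggctcCACCC
Hba-x, chr11:32276560-32276589, plus strand: tgaccatgtgtaTATAAAggagacactggg
In Hbb-y, CACCC stood 111 to 107 bases before the start, CCAAT 83 to 79 bases before it, and GATAA on the opposite strand 162 to 158 bases before it. In Hba-x, GATAA stood 107 to 103, CACCC 95 to 91 and again 198 to 194, and TATAAA 28 to 23 bases before the start. Both held a CACCC box and a GATA motif. The exact spelling CCAAT matched in Hbb-y alone and the exact spelling TATAAA in Hba-x alone. Near spellings were not searched, so a box missing here may be present in another spelling. Of 32851 promoters of the same length, 52.0% held the CACCC box, 33.9% the CCAAT box, 22.6% the GATA motif and 12.4% the TATA box, so that single matches were common. The table of promoters held no entry for Slc4a1.

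The values were TPM (a level scaled by transcript length and by library total). For the 3 genes they stood at whole multiples of the TPM of a single read, within 0.1 read in 87 of 90 values and within 0.16 in all, so reads are given beside TPM. The values of 0, which were 23 for Hba-x and 2 for Slc4a1, are whole at any step. Libraries held an estimated 7987000 to 12790000 reads on the table's transcripts. At this depth a single read was worth 0.352 to 0.588 TPM for Hba-x. Markers of microglia were high in every library (8 of 8 measured, summed TPM 16510 to 51830).

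The embryonic alpha-type globin Hba-x was present before birth and almost absent after it. In E17 Saline, Hba-x was 7.04, 12.75 and 26.5 TPM, from 20, 35 and 71 reads. In E17 MIA it was 11.54, 12.07 and 7.52 TPM, from 29, 31 and 21 reads. Of the 24 libraries taken at P7, P20 and P60, 23 were listed at 0. The exception was P60 MIA_MG-REP library 3, at 0.4 TPM, which was 1 read. Over all later libraries Hba-x therefore had 1 read of 241800000, or 0.00414 CPM (reads scaled to the library total) (exact Poisson 95% interval 0.000105 to 0.0230). At E17 it had 207 reads of 72510000, or 2.86 CPM (2.48 to 3.27). These intervals, here and for Hbb-y below, pool the libraries and cover counting error only. They leave out the spread between libraries, which for Hba-x ran from 1.564 to 5.935 CPM at E17. The reads also carried no molecular identifiers.

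Among the 14225 transcripts, Hba-x alone was above 0 in all 6 E17 libraries and in no more than 1 later library, a pattern looked for after its values were seen. The limit of 1 later library equals what Hba-x itself showed. Only transcripts with at least 2 CPM in 3 or more libraries were in the table, so weaker transcripts of this pattern could not appear. The P7 groups were set against a floor of 3 reads over the group. Set against that floor, Hba-x was 38.6-fold higher at E17 in Saline offspring (126 reads against 0) and 21.3-fold higher in MIA offspring (81 reads against 0). These ratios take the E17 reads without their error, so they are not strict lower limits. Of the 126 reads in Saline offspring, 71 came from library 3.

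The embryonic beta-type globin Hbb-y was also highest before birth, but it never reached 0. In E17 Saline, Hbb-y was 7.85, 10.95 and 19.89 TPM, from 23, 31 and 55 reads. In E17 MIA it was 12.73, 11.33 and 10.75 TPM, from 33, 30 and 31 reads. The 24 later libraries ranged from 0.39 to 4.83 TPM with a median of 0.885, and all of them lay below the lowest E17 library. Hbb-y was detected in each of the 24, from 1 to 12 reads, and together they held 72 reads, or 0.298 CPM (exact Poisson 95% interval 0.233 to 0.375), against 2.80 (2.43 to 3.21) at E17.

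Band 3, encoded by Slc4a1, followed the same order at lower TPM. In E17 Saline, Slc4a1 was 2.04, 1.35 and 2.17 TPM, from 44, 28 and 44 reads. In E17 MIA it was 4.56, 1.23 and 1.42 TPM, from 87, 24 and 30 reads. The later libraries ranged from 0 to 0.97 TPM with a median of 0.385, and 2 of them were listed at 0 (library 1 of P60 MIA_CTRL and library 1 of P60 Saline_MG-REP). No later library reached the lowest E17 library, at 1.23 TPM.

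**Figure D1:**
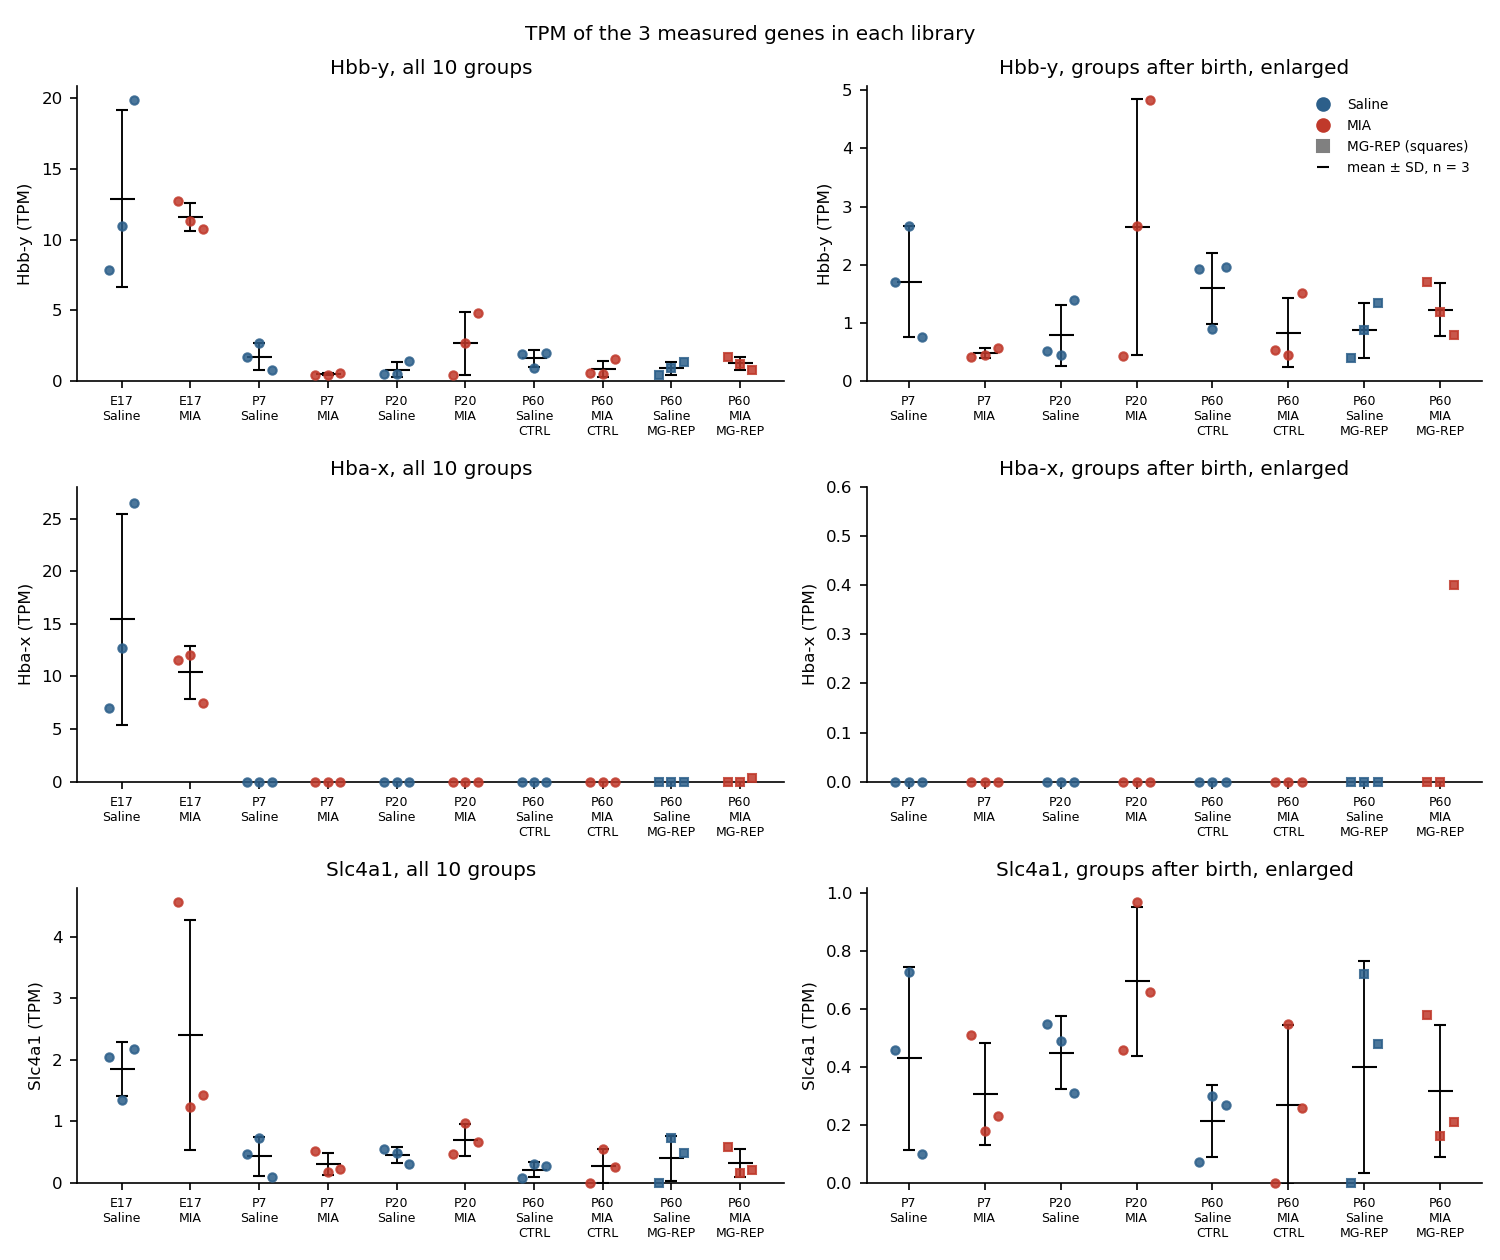
TPM of Hbb-y, Hba-x and Slc4a1 in each of the 30 libraries, with all 10 groups on the left and the 8 groups after birth enlarged on the right. Each point is a library (blue Saline, red MIA, squares MG-REP), and the bars give the mean ± SD of 3 libraries, except in groups with 2 or more libraries at 0. All E17 libraries lie above all later libraries for each gene, and Hba-x has a single later value above 0, at 0.4 TPM.

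All 3 genes could enter the table only through their E17 libraries, which limits what their fall with age can show. The authors kept genes with at least 2 CPM in 3 or more libraries. By the estimated reads, Hba-x reached that level in 4 of 6 E17 libraries, Hbb-y in 5 and Slc4a1 in 6, and no gene reached it in any of the 24 later libraries. A gene this low after birth had to be high at E17 to be listed at all, so the counts and tests between E17 and P7 are given as a description of its size.

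Between E17 and P7 all 3 genes fell in Saline offspring by the limma test on log2(TPM + 1), in which a TPM near 0 gives a small difference. Since the genes entered the table only through E17 libraries, the p values, overlaps and shares here and in MIA offspring do not test the fall. Hba-x fell by 3.86 on this log2 scale (SE 0.25, adjusted p = 4.84e-10). The fit shared its spread over all groups, and Hba-x was at or near 0 TPM after birth. Its SE, here and in MIA offspring, therefore understates the spread among E17 libraries, and its p is too small. Hbb-y fell by 2.33 (SE 0.39, 95% interval -3.13 to -1.53, adjusted p = 0.000969), from 12.9 ± 6.25 to 1.71 ± 0.960 TPM (SD, n = 3 each). Slc4a1 fell by 1.01 (SE 0.26, 95% interval -1.56 to -0.46, adjusted p = 0.0282), from 1.85 ± 0.441 to 0.430 ± 0.316 TPM (SD, n = 3 each). The libraries of the 2 ages did not overlap for any of the 3 genes. Among all transcripts, 4.32% passed the test and 10.8% were lower at P7 without overlap. In bulk RNA, fewer cells of a type and less RNA per cell cannot be told apart.

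In MIA offspring the same 3 genes fell between E17 and P7, again without overlap. Hba-x fell by 3.48 (SE 0.25, adjusted p = 4.29e-09). Hbb-y fell by 3.10 (SE 0.39, 95% interval -3.90 to -2.29, adjusted p = 3.88e-05), from 11.6 ± 1.02 to 0.473 ± 0.0851 TPM (SD, n = 3 each). Slc4a1 fell by 1.26 (SE 0.26, 95% interval -1.81 to -0.71, adjusted p = 0.0105), from 2.40 ± 1.87 to 0.307 ± 0.178 TPM (SD, n = 3 each). Of all transcripts, 2.39% passed the test in MIA offspring and 6.21% were lower at P7 without overlap.

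The call of Slc4a1 was less stable than those of the globins. In Saline offspring it was lost when library 1 or 3 of E17 Saline, or library 1 or 3 of P7 Saline, was left out (adjusted p = 0.0814 to 0.118). In MIA offspring it was lost without library 1 of E17 MIA (log2 difference -0.84, adjusted p = 0.0739) and without library 2 of P7 MIA (adjusted p = 0.0540). With a pseudocount of 0.1 it was lost in both (adjusted p = 0.102 in Saline and 0.0803 in MIA). Fitted on only the groups compared, it had an adjusted p of 0.471 in MIA and 0.0464 in Saline offspring.

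Within E17, both globins were present in each library, and neither was the higher in all of them. The ratio of Hba-x to Hbb-y was 0.897, 1.16 and 1.33 in the Saline libraries and 0.907, 1.07 and 0.700 in the MIA libraries. Hba-x made up 41.2% to 57.1% of the summed TPM of both. That sum ranged from 14.9 TPM in Saline library 1 to 46.4 TPM in Saline library 3, a wider range than that of the ratio.

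The E17 library highest for the globins was not the one highest for band 3. Saline library 3 held the most Hba-x and Hbb-y, with Slc4a1 at 2.17 TPM. MIA library 1 held the most Slc4a1, at 4.56 TPM, with Hba-x and Hbb-y within the range of the other libraries. MIA library 1 also held 1148 TPM of neuron markers, against 152 to 319 TPM in the other E17 libraries, and 16510 TPM of microglia markers, against 20140 to 28740. The part of this difference between libraries in the level of Slc4a1 was not tested.

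**Figure D2:**
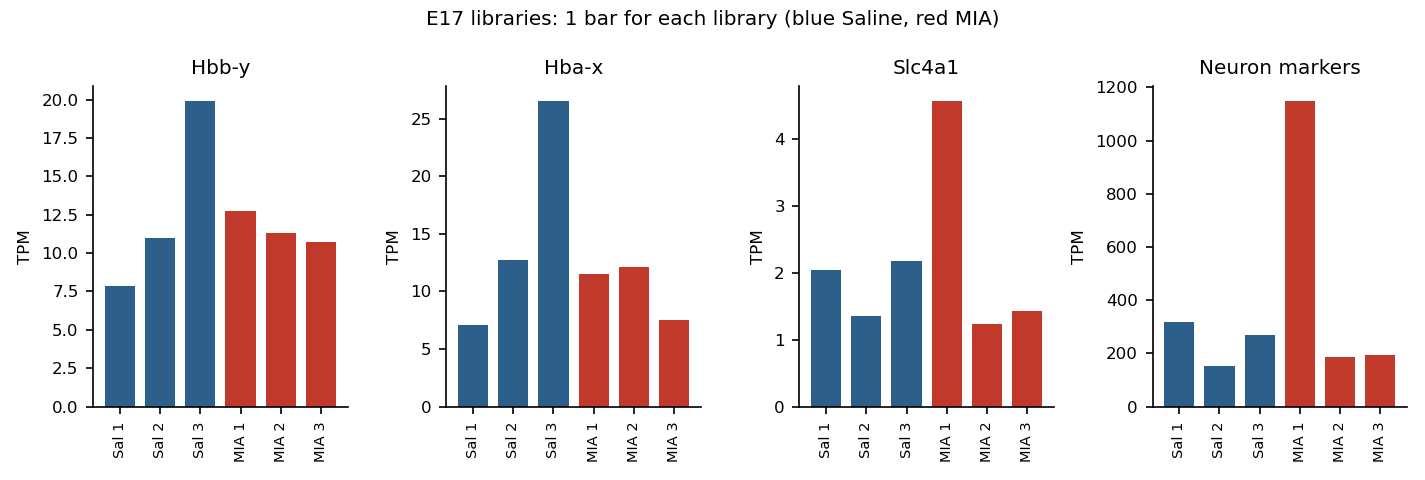
TPM of Hbb-y, Hba-x, Slc4a1 and the summed neuron markers in the 6 E17 libraries, with 1 bar for each library (blue Saline, red MIA). Saline library 3 is highest for both globins, and MIA library 1 is highest for Slc4a1 (4.56 TPM) and neuron markers (1148 TPM).

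At E17, none of the 3 genes passed the limma test between MIA and Saline offspring. Hbb-y was 12.9 ± 6.25 TPM in Saline and 11.6 ± 1.02 TPM in MIA (SD, n = 3 each), a log2 difference of -0.05 (95% interval -0.85 to 0.75, adjusted p = 0.976). Hba-x had means of 15.4 TPM in Saline (7.04 to 26.5) and 10.4 TPM in MIA (7.52 to 12.07), a difference of -0.37 (95% interval -0.89 to 0.14, adjusted p = 0.754). This interval is too narrow for E17, since the fit shared its spread with later groups in which Hba-x was at or near 0. Slc4a1 was 1.85 ± 0.441 and 2.40 ± 1.87 TPM (SD, n = 3 each), a difference of 0.14 (95% interval -0.41 to 0.68, adjusted p = 0.889). Libraries of the 2 groups overlapped for each gene. No transcript passed in this comparison (0.0% of all, with 585 at an unadjusted p under 0.05), and the intervals still allow a change by about 0.85 on the log2 scale for Hbb-y.

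Each of these 3 differences had its sign set by 1 library. Without Saline library 3 the difference became 0.29 for Hbb-y and 0.09 for Hba-x, and without MIA library 1 it became -0.28 for Slc4a1.

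At P7, Hbb-y was lower in MIA than in Saline offspring in every library, but the difference rested on few reads. It was 1.7, 2.67 and 0.75 TPM in P7 Saline, from 4, 7 and 2 reads. In P7 MIA it was 0.41, 0.44 and 0.57 TPM, which was 1 read in each library. The log2 difference was -0.81 (SE 0.39, 95% interval -1.62 to -0.01), with an unadjusted p = 0.0470 in limma and an adjusted p of 1. The groups did not overlap, as was so for 1.81% of all transcripts lower in MIA, and 0.0% of all passed the test (335 at an unadjusted p under 0.05). Slc4a1 was 0.46, 0.73 and 0.1 TPM in P7 Saline and 0.51, 0.18 and 0.23 TPM in P7 MIA, and the groups overlapped (log2 difference -0.11, adjusted p = 1). Hba-x was listed at 0 in all 6 libraries, with 0 of 33610000 reads in Saline and 0 of 28350000 in MIA. A floor of 3 reads over the group stood at 0.0893 and 0.106 CPM, and the exact Poisson 95% upper limits were 0.110 and 0.130 CPM.

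At P20 the order of the Hbb-y means was the opposite of that at P7. Hbb-y was 0.51, 0.45 and 1.39 TPM in P20 Saline, from 1, 1 and 3 reads. In P20 MIA it was 0.42, 2.67 and 4.83 TPM, from 1, 6 and 12 reads. Libraries 2 and 3 of P20 MIA were above all P20 Saline libraries and library 1 was below them. The log2 difference was 0.85 (SE 0.39, 95% interval 0.04 to 1.65, unadjusted p = 0.0398, adjusted p = 1.00 in limma). Slc4a1 was 0.55, 0.49 and 0.31 TPM in P20 Saline and 0.46, 0.97 and 0.66 TPM in P20 MIA, with overlap (log2 difference 0.22, adjusted p = 1.00). No transcript passed at P20 (0.0% of all, 457 at an unadjusted p under 0.05), and Hba-x was listed at 0 in all 6 libraries.

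The MIA effect on Hbb-y was then set against itself between P20 and P7, 1 of 6 such differences between ages, all added after the values were seen. It differed by 1.66 on the log2 scale (SE 0.55, 95% interval 0.53 to 2.80, unadjusted p = 0.00597) and did not pass across all transcripts (limma, adjusted p = 0.998).

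In MIA offspring alone, Hbb-y rose from P7 to P20 by 1.08 (SE 0.39, 95% interval 0.28 to 1.89, limma adjusted p = 0.0320), where 35.6% of all transcripts passed. The 2 ages overlapped, since library 1 of P20 MIA had 1 read like each P7 MIA library. The call was lost without any single one of the P7 MIA libraries and without library 2 or 3 of P20 MIA (adjusted p = 0.0538 to 0.233). Without library 3 the difference was 0.63. In Saline offspring Hbb-y did not pass between these ages (log2 difference -0.58, 95% interval -1.38 to 0.23, adjusted p = 0.261), where 36.2% of all did. Slc4a1 passed in neither (0.04 in Saline, adjusted p = 0.921, and 0.37 in MIA, adjusted p = 0.286).

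Between P20 and P60 control offspring none of the genes passed. Slc4a1 was 0.07, 0.3 and 0.27 TPM in P60 Saline_CTRL, below all P20 Saline libraries. The difference of -0.26 (95% interval -0.81 to 0.29) had an adjusted p of 0.707, and 12.7% of all transcripts were lower without overlap while 3.51% passed. Hbb-y differed in opposite directions in the 2 treatments, by 0.55 in Saline (95% interval -0.26 to 1.35, adjusted p = 0.533), from 0.783 ± 0.526 to 1.59 ± 0.607 TPM (SD, n = 3 each). In MIA offspring Hbb-y differed by -0.82 (95% interval -1.62 to -0.01, adjusted p = 0.277) and Slc4a1 by -0.43 (95% interval -0.98 to 0.12, adjusted p = 0.418), and 2.6% of all passed.

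At P60 in control offspring, MIA and Saline libraries overlapped for each gene. Hbb-y was 1.92, 0.89 and 1.96 TPM in Saline_CTRL, from 4, 2 and 5 reads. In MIA_CTRL it was 0.53, 0.45 and 1.51 TPM, from 1, 1 and 4 reads. The log2 difference was -0.52 (95% interval -1.32 to 0.29, adjusted p = 1), and 0.0% of all transcripts passed (256 at an unadjusted p under 0.05). Slc4a1 in MIA_CTRL was 0, 0.55 and 0.26 TPM and differed by 0.05 (95% interval -0.50 to 0.60, adjusted p = 1), a value near 0 whose sign changed with the pseudocount.

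With replacement of microglia none of the 3 genes passed in Saline offspring, where many other transcripts did. Hbb-y was 0.39, 0.88 and 1.33 TPM in Saline_MG-REP, from 1, 2 and 3 reads, against Saline_CTRL a log2 difference of -0.47 (95% interval -1.28 to 0.33, adjusted p = 0.416). Slc4a1 was 0, 0.72 and 0.48 TPM, a difference of 0.18 (95% interval -0.37 to 0.72, adjusted p = 0.683). Of all transcripts, 26.7% passed in this comparison. Library 2 of Saline_MG-REP held 5817 TPM of neutrophil markers, against 35.6 and 350 TPM in the other 2, and in that group it was in the middle for Hbb-y and highest for Slc4a1. Without that library the Slc4a1 difference was 0.01 (adjusted p = 0.987).

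In MIA offspring, Hbb-y was 1.7, 1.19 and 0.78 TPM after repopulation, from 4, 3 and 2 reads, a difference of 0.31 from MIA_CTRL (95% interval -0.50 to 1.11, adjusted p = 0.979). Slc4a1 was 0.58, 0.16 and 0.21 TPM, a difference of 0.06 (95% interval -0.49 to 0.61, adjusted p = 0.985). Hba-x differed from its controls, all listed at 0, by the 1 read in library 3. None passed, with 0.555% of all. The effect of repopulation in MIA minus that in Saline offspring was 0.78 for Hbb-y (95% interval -0.35 to 1.92, adjusted p = 0.457) and -0.11 for Slc4a1 (95% interval -0.89 to 0.66, adjusted p = 0.939). These did not pass either, with 10.5% of all.

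**Figure D3:**
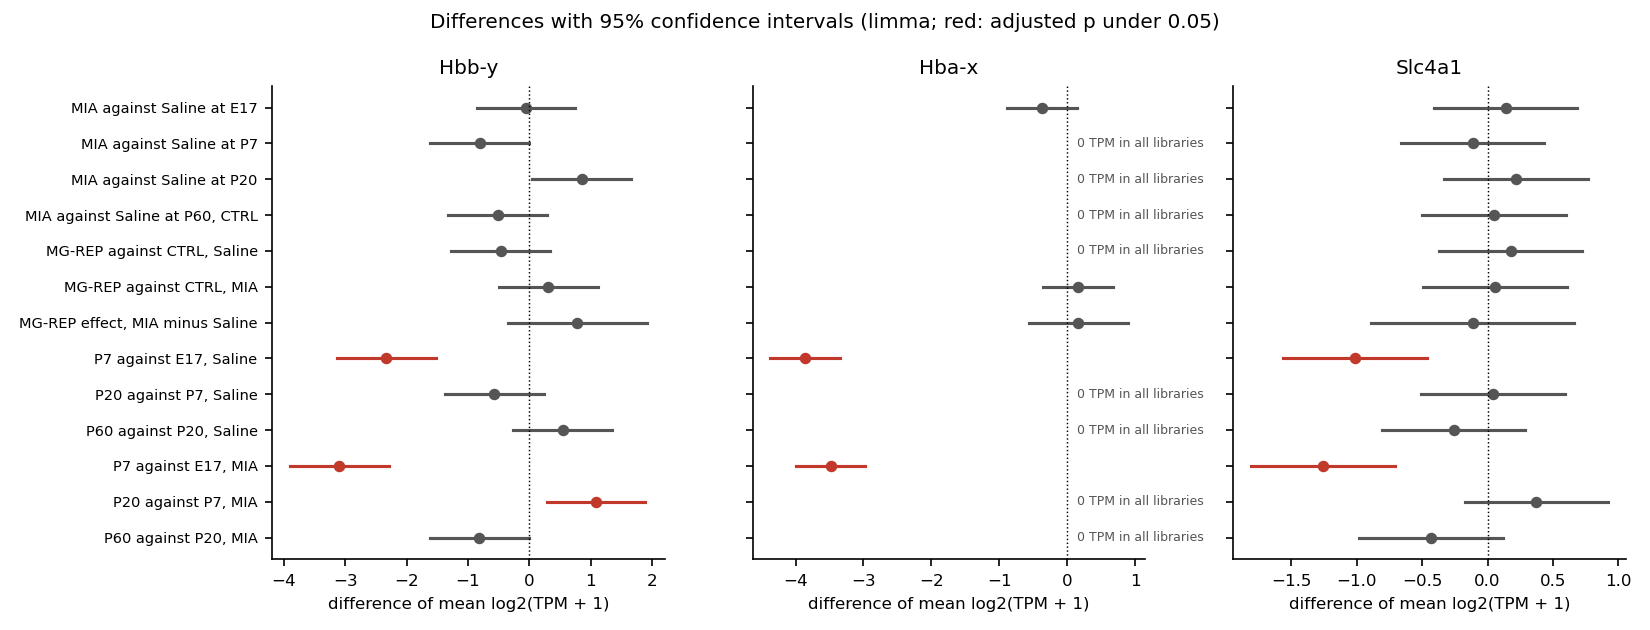
Differences of mean log2(TPM + 1) with their 95% confidence intervals from limma for Hbb-y, Hba-x and Slc4a1 in 13 comparisons, in red where the adjusted p was under 0.05. All 3 genes are lower at P7 than at E17 in Saline and MIA offspring, Hbb-y is higher at P20 than at P7 in MIA offspring, and the other intervals are grey. The intervals of Hba-x understate its spread at E17. All 3 genes entered the table only through E17 libraries, so the red marks between E17 and P7 do not test that fall.

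Ordered by mean TPM, the 2 E17 groups stood first for each gene, and the lower of them did not overlap with the group that followed. After them Hbb-y was highest in P20 MIA (2.64 ± 2.21), P7 Saline (1.71 ± 0.960) and P60 Saline_CTRL (1.59 ± 0.607), and lowest in P7 MIA (0.473 ± 0.0851 TPM; SD, n = 3 each). Every pair of neighbours in that order after E17 overlapped, for Hbb-y as for Slc4a1. For Slc4a1 the later means lay between 0.213 ± 0.125 TPM in P60 Saline_CTRL and 0.697 ± 0.257 TPM in P20 MIA (SD, n = 3 each). P20 MIA was thus the highest group after birth for both genes, and its library 2 or 3 was the highest later library of each.

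The transcripts most like the globins were sought by Pearson's r of log2(TPM + 1) with the summed globins over the 30 libraries, among 12642 transcripts with a mean TPM of at least 1. The 10 highest included Igf2bp1 (r = 0.880), Lrrc15 (0.875), Neurod6 (0.865), Pramef8 (0.853), Grem1 (0.845), Fgf15 (0.824), Isl1 (0.823), Gm5416 (0.818) and Olfm4 (0.818). All were in the authors' immature microglia module like the globins, and the r describes the step between E17 and later ages that they share. Igf2bp1, a fetal RNA-binding protein, was 6.44 to 18.7 TPM at E17 and 0 to 1.86 later. Neurod6, a transcription factor of cortical neurons, was 16.8 to 123 TPM at E17 and 0.45 to 4.94 later. By deviations from the group means, which leave out that step, the highest was Lao1 with r = 0.685 and the tenth was Slc10a6 with 0.573. In order they were Lao1, Gm11696, Gpank1, Tfap4, Trpm2, Rps4l, Zfp213, Gm1943, Vamp5 and Slc10a6, and none was in the erythroid lists.

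Other red blood cell genes were read from lists of membrane proteins, transcription factors, heme synthesis, other erythroid genes and the clearance of hemoglobin. Defining genes without a row were Gata1, Klf1, Nfe2 and Gfi1b among the factors, Ahsp, Hemgn, Car1 and Cldn13 among other erythroid genes, and Epb42, Ank1, Rhag and Kel in the membrane, so they were not analysed here.

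Between E17 and P7, 6 of the 55 transcripts of these 5 lists passed in Saline offspring, all higher at P7, and 5 passed in MIA offspring, 3 of them higher. That was 10.9% and 9.09% of the listed transcripts, against 4.32% and 2.39% of all, and of all transcripts that passed 71.5% and 66.5% were higher at P7. In Saline offspring, 2 of 13 membrane transcripts passed and both rose (Ermap by 0.71, Tmod1 by 1.39), as did 3 of 7 of the factors (Zfpm1 0.63, Ldb1 0.65, Lmo2 0.75) and 1 of 15 other erythroid transcripts, the erythropoietin receptor Epor (1.01). Of the 2 transcripts of Lmo2, only 1 passed. None of 10 heme synthesis and none of 10 clearance transcripts passed. In MIA offspring Ermap (0.69), Zfpm1 (0.50) and Epor (0.91) rose, while Cd24a (-1.86) and Bcl11a (-2.25) fell. Both of the latter were highest in E17 MIA library 1, at 542 and 37.0 TPM, the library high in neuron markers. The median differences in Saline offspring were 0.18 for the membrane list, 0.24 for the factors, 0.03 for other erythroid genes, -0.07 for heme synthesis and -0.12 for clearance, against 0.05 over all transcripts. In MIA offspring they were -0.05, 0.06, -0.15, 0.07 and -0.15 in the same order, against -0.02 over all.

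Between P7 and P20, 25 of the 55 listed transcripts passed in Saline offspring (45.5%, against 36.2% of all) and 15 in MIA offspring (27.3%, against 35.6% of all). Of 10 heme synthesis transcripts, 6 rose and 2 fell in Saline and 4 rose and 2 fell in MIA offspring. They included the mitochondrial iron carrier Slc25a37 (1.37 in Saline and 1.40 in MIA) and Cpox (1.74 and 1.17), with Slc25a38 higher in Saline (0.70). Of 15 other erythroid transcripts, 2 rose and 6 fell in Saline and 1 rose and 3 fell in MIA offspring. Epor (-1.63 and -1.31) and Blvrb (-0.93 and -0.71) fell in both, the transferrin receptor Tfrc fell in MIA (-1.81) and Car2 rose in Saline (2.30). In the membrane list Tmod1 (1.70 and 2.00) and Ermap (0.68 and 0.86) rose and Gypc (-1.29 and -1.13) fell, and both transcripts of Lmo2 fell in Saline (-1.41 and -0.68).

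Markers of several other cells moved in the same step, in which 36.2% of all transcripts passed in Saline and 35.6% in MIA offspring. The summed oligodendrocyte markers were 86.3 to 161 TPM in P7 Saline and 885 to 2442 TPM in P20 Saline, and 97.8 to 133 and 971 to 1454 TPM in MIA offspring, and all 3 transcripts of that list rose in both. Of 6 astrocyte transcripts 3 rose in Saline and 2 in MIA offspring, and of 8 microglia transcripts 6 and 7 rose. Of 6 platelet and megakaryocyte transcripts 1 rose in each, and 4 fell in Saline and 3 in MIA offspring. Of 10 endothelial transcripts 3 rose and 3 fell in each. Of 5 neuron and of 5 monocyte transcripts 1 rose in each, and of 3 lymphocyte transcripts 1 fell in each. Of 11 neutrophil transcripts 0 passed in Saline and 1 fell in MIA offspring. Their part in the changes of the listed genes was not tested.

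Among genes that clear hemoglobin and heme, 1 of 10 rose and 3 fell from P7 to P20 in Saline and 2 fell in MIA offspring, where 36.2% and 35.6% of all transcripts passed. The iron exporter Slc40a1 (-0.98 and -0.53) and biliverdin reductase Blvra (-1.05 and -1.04) fell in both, and Ftl1 in Saline (-0.70). Heme oxygenase Hmox1, which opens the heme ring, was 1253 ± 128 TPM in E17 Saline and 666 ± 100 in P7 Saline (SD, n = 3 each), and this did not pass (log2 difference -0.92, adjusted p = 0.0824). Spic, a factor of heme-clearing macrophages, was 7.09 ± 1.67 and 2.58 ± 0.832 TPM (SD, n = 3 each; -1.18, adjusted p = 0.0575). Hmox1 and Spic were chosen after their values were seen.

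With repopulation in Saline offspring, 15 of the 55 listed transcripts passed, 5 higher and 10 lower. That was 27.3%, a share near the 26.7% of all transcripts. Slc40a1 (-1.84), Slc25a37 (-1.38), Epor (-1.54), Tmod1 (-1.10), Zfpm1 (-1.01), Lmo2 (-0.82), Ermap (-0.79), Cd163 (-0.58) and Ppox (-0.50) fell. For Lmo2 this was 1 of its 2 transcripts. Ctse (3.82), Ube2l6 (0.97), Epb41 (0.54) and Blvra (0.47) rose. In MIA offspring no transcript of these lists passed, where 0.555% of all transcripts did, so that few could be looked for among the listed. The effect differed between MIA and Saline offspring for Zfpm1 (0.82), Slc25a37 (1.29), Slc40a1 (1.55), Ctse (-2.35), Ube2l6 (-0.87) and Blvrb (-0.82). That was 10.9% of the listed and 10.5% of all transcripts. Slc40a1, for example, was 57.2 ± 16.3 TPM in Saline_MG-REP, 203 ± 21.8 in Saline_CTRL, 160 ± 11.4 in MIA_MG-REP and 196 ± 10.1 in MIA_CTRL (SD, n = 3 each). In the same comparison in Saline offspring 7 of 8 microglia markers fell, with their sum at 24950 to 28540 TPM in Saline_MG-REP and 35860 to 51830 TPM in Saline_CTRL. Of 10 endothelial transcripts 3 fell, of 6 platelet and megakaryocyte transcripts 2 rose and 2 fell, and of 5 monocyte transcripts 1 rose and 1 fell. Their part in the changes of the listed genes was not tested.

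**Figure D4:**
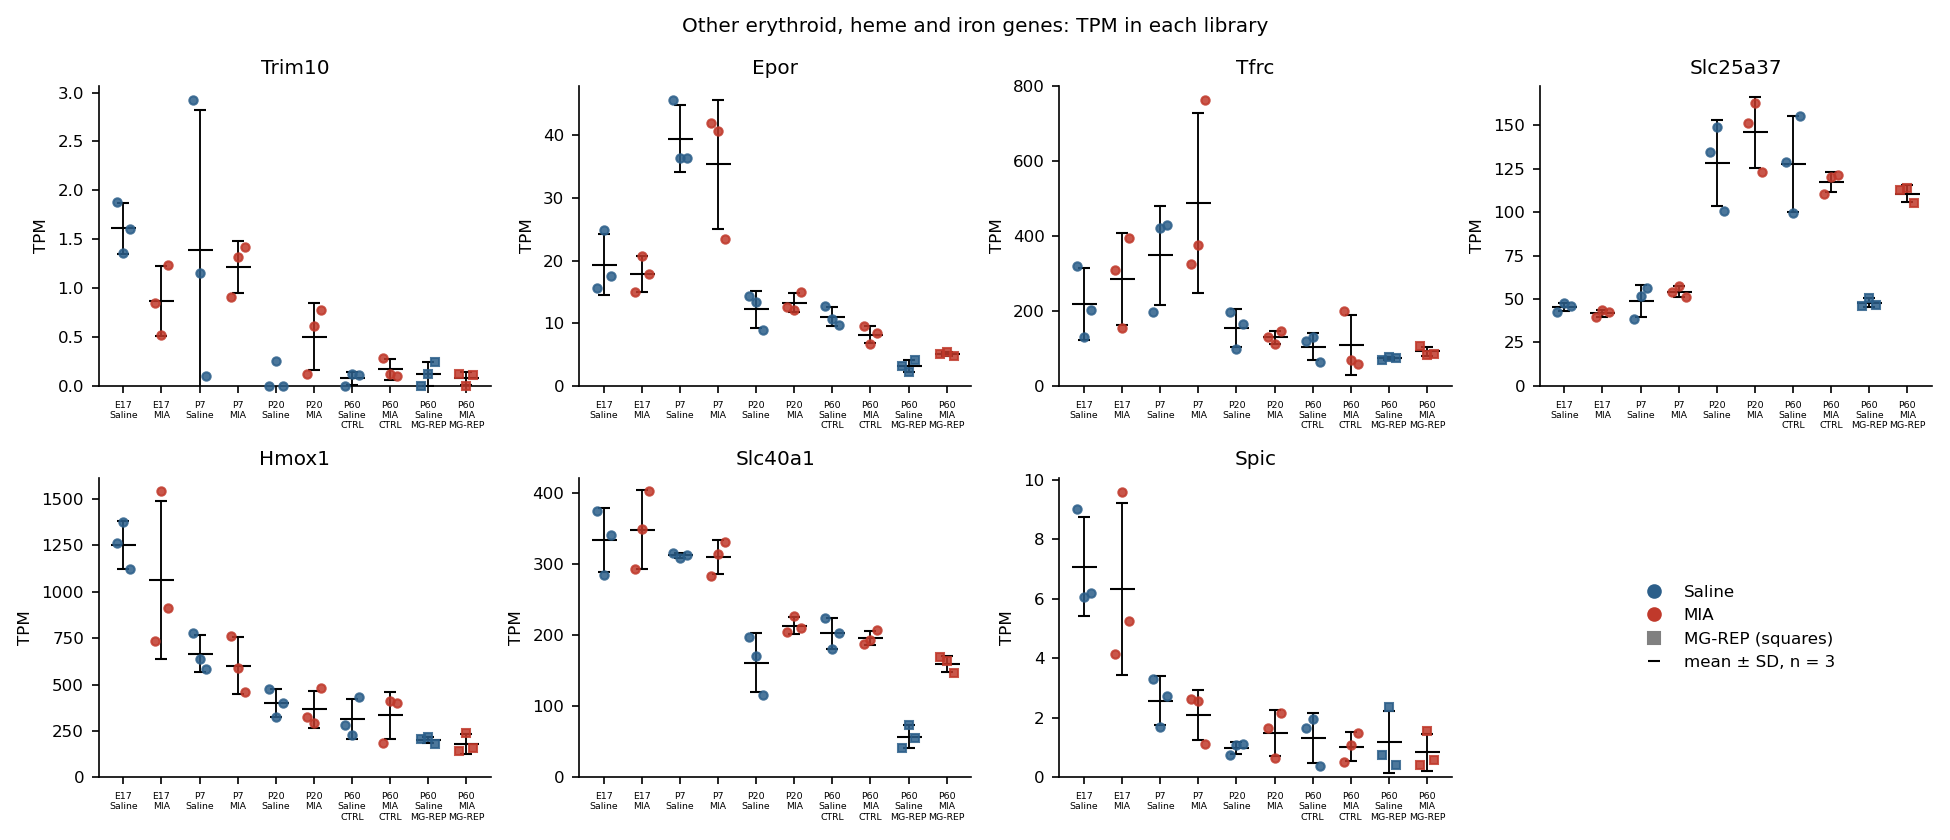
TPM of 7 other erythroid, heme and iron genes in each of the 30 libraries by group (blue Saline, red MIA, squares MG-REP), with bars for the mean ± SD of 3 libraries except in groups with 2 or more libraries at 0. Slc25a37 and Slc40a1 are lower in Saline_MG-REP than in the other P60 groups.

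The genes next to the globins on their chromosomes were read in the same comparisons. In the alpha-globin locus 5 of 8 listed neighbours had a row, and none passed between E17 and P7. From P7 to P20, Snrnp25 fell (-1.17 in Saline and -1.05 in MIA), as did Mpg (-0.74 and -0.56) and, in MIA offspring, Polr3k (-0.59), where 36.2% and 35.6% of all transcripts passed, and Snrnp25 rose with repopulation in Saline offspring (0.87), with a difference of -1.06 between MIA and Saline. In the beta-globin locus 2 of 8 had a row, of which Trim34a rose from P7 to P20 in MIA offspring (0.73). Cytoglobin, Cygb, the globin of fibroblast-like cells, was 2.25 to 11.2 TPM at E17 and passed in no comparison.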

How the data were processed

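RNA of CD11b+ cells from whole brain was measured in 30 libraries, 3 in each of 10 groups taken from the labels. The authors made non-stranded poly(A) libraries with 40-base single-end reads, aligned them to mm10 with Rsubread and used featureCounts with UCSC gene models. Genes entered the table where the CPM was 2 or higher in at least 3 libraries. The authors deposited TPM for the 14225 transcripts that remained, with no count table used here, and the formula of the TPM is not given in the sources used here. The columns naming the authors' module were used only as a label.

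In R 4.3.3, limma 3.58.1 was fitted to log2(TPM + 1) of all transcripts and all 10 groups, in 13 two-sided contrasts moderated along a mean-variance trend, with Benjamini-Hochberg adjustment over all transcripts at 0.05. The fit was tested on simulated data. The number of reads in each library was inferred from the spacing of small TPM over 14005 transcripts of known length (69.5% to 75.4% of low values within 0.2 of whole reads, against 40% by chance). The lengths of the 3 genes were set to the RefSeq span, 619 bases for Hbb-y, 601 for Hba-x and 4550 for Slc4a1. No count model was fitted to these reads.

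The members and gene lists were chosen with earlier results of these data known. The genes named are each member in each contrast, up to 3 called transcripts with the smallest p per list and contrast, and the 10 transcripts most like the summed globins by either measure, apart from a few that are not reported here. Replicate numbers were checked for pairing by the correlation of deviations from group means. The r of same-numbered Saline and MIA libraries was over 0.1 in all 3 pairs at P20 alone (0.104 to 0.238). Single pairs were higher elsewhere, with 0.404, 0.656 and 0.000 at E17 and 0.203, -0.166 and 0.634 at P60 in control offspring. Nothing in the labels ties the numbers to a litter or day. Sequences came from RefSeq (GRCm38.p6) and GENCODE M21. The alternatives were a pseudocount of 0.1, median-ratio scaling, leaving out transcripts with a mean under 1 TPM, no trend, only the groups compared, a replicate block and leaving out each library. Figures were drawn with matplotlib 3.10.9.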

Additional observations from a re-analysis of the deposited data

How the results depend on the processing

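The number of the 3 genes that passed was taken as unchanged within 1.5 times of its value, so the loss of 1 call out of 3 did not register. By that rule the number was unchanged in 12 of 13 comparisons under each alternative run, and in most of these no gene had passed. From P7 to P20 in MIA offspring it was 1 and fell to 0 with only the groups compared (Hbb-y adjusted p = 0.116), and it was 0 to 1 when a library was left out. Slc4a1 lost its call between E17 and P7 with a pseudocount of 0.1 in both treatments and, in MIA offspring, with only the groups compared (adjusted p = 0.471). Values that changed sign were those of differences that did not pass. With a pseudocount of 0.1, Slc4a1 was -0.03 for MIA against Saline at P60 and 0.10 for the difference in repopulation effect. With a library left out, MIA against Saline at E17 ranged from -0.33 to 0.29 for Hbb-y, from -0.80 to 0.09 for Hba-x and from -0.28 to 0.37 for Slc4a1. For Slc4a1 it ranged from -0.29 to 0.04 at P7 and from -0.11 to 0.21 at P60. Repopulation in MIA offspring ranged from -0.10 to 0.22 for Slc4a1, the difference in repopulation effect from -0.34 to 0.05, and P20 against P7 in Saline offspring from -0.14 to 0.19.

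With the replicate block, no gene changed its call, and Hbb-y from P7 to P20 in MIA offspring had an adjusted p of 0.0208 at the same difference of 1.08. Median-ratio scaling moved the median of all transcripts at E17 from 0.10 to 0.00 for MIA against Saline and changed no call of the 3 genes. Slc4a1 has a mean below 1 TPM and was not tested under that filter. After birth, Hbb-y rested on 1 to 12 reads and Slc4a1 on 0 to 16 reads a library, so that differences among the later groups were limited by depth. The design with 3 libraries a group allows no exact permutation p below 0.1, and none is given.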
